A study of Mus musculus with 4 samples.

Results

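The replication-dependent histone genes were taken as every gene symbol in the deposited tables that starts with Hist1h, Hist2h, Hist3h or Hist4h. This gave 67 members of 31053 genes: 6 H1 linker histone genes, 18 H2A, 18 H2B, 12 H3 and 13 H4 genes. The study profiled thymus of FVB/N mice by droplet single-cell RNA sequencing, with 1 library from 1 animal each for a wild-type (WT) mouse and a preleukemic Tal1/Lmo2 mouse, both 6 weeks old, and for 2 leukemic Tal1/Lmo2 mice (libraries T-ALL#1 and T-ALL#2, for T-cell acute lymphoblastic leukemia), both 3 months old. In the Tal1/Lmo2 mice the proximal Lck promoter drives both oncogenes in thymocytes, so all 3 transgenic libraries carry them and the WT library does not. Red cells were lysed and viable single cells, negative for 7-AAD, were sorted in every case. WT and preleukemic are single libraries, and no test between genotypes or stages was run. The tests below compare states of cells within each animal, with the 4 animals as replicates.

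Each S phase doubles the DNA, and the replication-dependent genes supply the core histones H2A, H2B, H3 and H4 and the linker histone H1 that package the new copy. Their mRNAs are the exception among animal mRNAs in ending in a conserved stem-loop in place of a poly(A) tail, and the stem-loop binding protein Slbp governs their processing, translation and decay. The libraries were primed on poly(A), so a transcript without a tail is counted only where the primer finds another run of A, and counts need not follow the true mRNA level. Some members, such as Hist1h1c and Hist1h2be, are also known to give polyadenylated mRNA with a longer 3′ end in cells that have left the cycle.

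The stem-loop is shown first because it marks the end that poly(A) capture does not reach. A 16-base stem-loop lay within the first 150 bases of the annotated 3′ UTR of 46 members (GRCm38). The search ended where the annotation ended, so members with no or a very short annotated 3′ UTR could not show one. The 3 most frequent forms are given 5′ to 3′, with the 4-base loop in capitals.
Form A: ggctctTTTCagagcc
Form B: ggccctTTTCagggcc
Form C: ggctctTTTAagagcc
Form A followed the stop codon of 26 genes, among them Hist1h2ap, Hist1h2ae, Hist1h3b, Hist1h1c and Hist3h2a. Form B followed 7 genes, Hist4h4 among them, and form C 6, among them Hist1h3c. The annotation (GENCODE M21) ended 3 bases past the stem-loop for Hist1h2ap and 51 past it for Hist1h3b. For Hist1h1c it ran on for 840 bases, for Hist3h2a for 1643 and for Hist4h4 for 2445. A poly(A) signal, AATAAA on the gene's own strand, lay in the annotated 3′ UTR of 19 members, and 13 members had no annotated 3′ UTR at all. Of the 67 genes, 54 lay on chromosome 13 between 21715763 and 23934851, 10 on chromosome 3, 2 on chromosome 11 and 1 on chromosome 6, and 62 had 1 exon in every transcript. Many share sequence: 44 had at least 1 90-base window of their last 400 bases in common with another member. For 5 every window was shared, among them Hist1h1e, which shares them with the H2B gene Hist1h2be. A 90-base read in such a window cannot be assigned to 1 gene, so the values of those genes are uncertain. With 150-base windows no member shared a larger part, and some shared none, such as Hist1h2ak and Hist1h2bf.

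After the filters (over 500 genes and under 10% mitochondrial UMIs, and at least 3416 UMIs in T-ALL#2, whose table held all barcodes), 4220 WT, 5576 preleukemic, 5773 T-ALL#1 and 1975 T-ALL#2 cells were kept. The median per cell was 3800.5, 4888, 8742 and 17581 UMIs, and library totals ran from 24042062 to 70745712 UMIs. Pairs of libraries shared 0 to 9 cell barcodes. The 7 T lineage markers (Cd3e, Cd3d, Cd3g, Lck, Trbc1, Trbc2 and Thy1) summed to between 6096 and 11639 UMIs per 1000000 counted (CPM), and the 5 B cell markers to between 5.41 and 18.7 CPM. Myeloid markers reached 239 CPM and erythroid markers 90.3 CPM in WT, against at most 6.19 and 0.294 CPM elsewhere; their part in the WT values was not tested. Tal1 had 0 UMIs in WT and 410, 68.3 and 234 CPM in the preleukemic, T-ALL#1 and T-ALL#2 libraries. Lmo2 counts did not separate the transgenic libraries from WT. The WT library held 0.915 CPM of Lmo2, the preleukemic library 4.48, and the leukemic libraries only 0.368 (T-ALL#1) and 0.276 (T-ALL#2). Both leukemias thus lay below WT for Lmo2, and the reason was not tested. Xist stood at 1380 CPM in the library labelled WT and 1869 CPM in the library labelled preleukemic, with no Ddx3y UMI in either, although both are labelled male. T-ALL#1, labelled female, had 1932 CPM of Xist and no Ddx3y UMI, and T-ALL#2, labelled male, stood apart with 0.083 CPM of Xist and 40.6 CPM of Ddx3y. T-ALL#2 thus differs from the other 3 libraries in this too, and what follows from sex cannot be told apart from what follows from the library.

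All 67 members together made up 6679 CPM in WT, 4344 in preleukemic, 2868 in T-ALL#1 and 2546 in T-ALL#2, over all kept cells. The exact Poisson 95% intervals did not overlap between libraries, and they cover counting error only, not differences between animals. H2A made up 69.0% of member UMIs in WT and 62.0% in preleukemic, but 28.1% in T-ALL#1 and 29.9% in T-ALL#2. H1, with 6 genes, held 15.7%, 19.7%, 42.6% and 35.6% in the same order. The H2A level was 4611, 2691, 807 and 760 CPM, and the H1 level 1051, 857, 1221 and 907 CPM. H2B stayed between 208 and 291 CPM, H3 between 288 and 360 CPM and H4 between 278 and 366 CPM. H2A alone had both leukemias more than 2-fold below both other libraries. This rested on Hist1h2ap: without that gene H2A stood at 1136, 775, 575 and 658 CPM. Neither leukemia was then 2-fold below either other library. Cell filters and scaling moved the level of all 67 members by up to 1.74 times, and with TMM scaling T-ALL#2 stood above T-ALL#1, at 3160 against 2902.

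**Figure D1:**
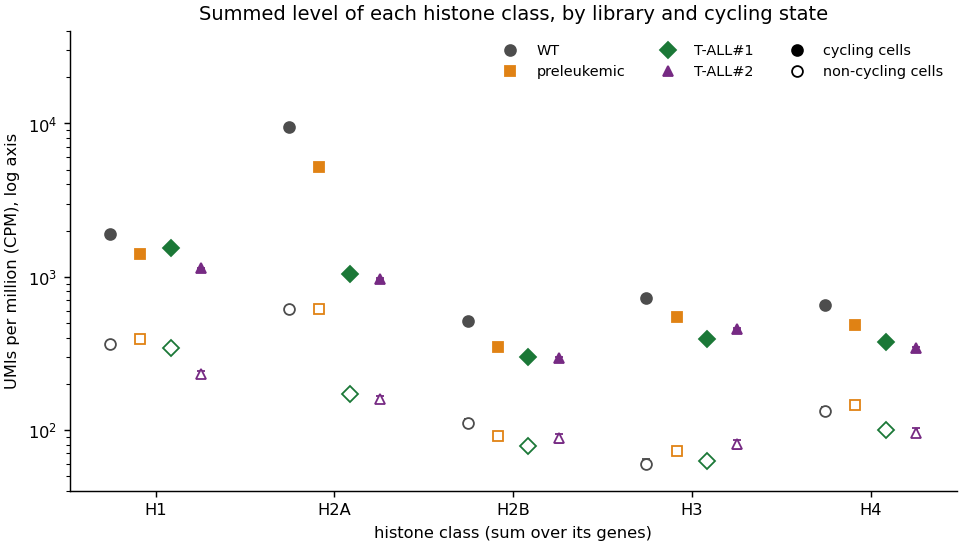
Level of each histone class, in CPM on a log axis, in cycling and non-cycling cells of the 4 libraries (points, with exact Poisson 95% intervals). Every class was higher in cycling cells of every library, and cycling H2A ran from 9549 CPM in WT to 963 CPM in T-ALL#2.

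Cycling cells, those with at least 1 UMI of the proliferation genes Mki67 or Top2a, carried most histone UMIs. All members together reached 13346 CPM in cycling against 1282 in non-cycling WT cells, and 7966 against 1310 in preleukemic cells. In T-ALL#1 the levels were 3654 against 755 CPM, and in T-ALL#2 3181 against 655 CPM. The log2 ratios were 3.38, 2.60, 2.27 and 2.28, so the cycling cells stood at the higher level in 4 of 4 libraries with no overlap between the 2 states. Of all member UMIs, non-cycling cells held 10.6% in WT, 16.4% in preleukemic, 7.14% in T-ALL#1 and 6.47% in T-ALL#2. Over all genes they held 13285768 of 24042062 UMIs in WT and 22230598 of 40851235 in preleukemic. In T-ALL#1 they held 19176917 of 70745712 and in T-ALL#2 9109769 of 36236569, so their share of all UMIs was lower in the leukemias too. Detection of either marker rises with depth: cycling cells had medians of 9866.5, 12890, 18481 and 22654 UMIs, and non-cycling cells 3280, 4316, 4788 and 11194.

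In the edgeR quasi-likelihood test on sums per library and state, with library as a block, 54 of the 61 members tested rose in cycling cells and 1 fell at an adjusted p below 0.05. Over all 12838 genes tested, 24.8% rose and 24.3% fell, 49.1% in all. The median log2 ratio of the members was 2.35, and that of all genes -0.05. By class, 5 of 5 H1, 15 of 16 H2A, 14 of 16 H2B, 10 of 12 H3 and 10 of 12 H4 genes rose. Within each single library, the counting interval of the ratio lay above 0 for 53, 53, 56 and 55 members, and it did so in every library for 51. With sums scaled to library totals alone, 2287 of all genes rose and 4486 fell, but 53 members still rose and 1 fell.

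Among the linker histones, Hist1h1b, the main H1 of dividing cells, stood at 971, 699, 834 and 656 CPM in cycling cells of WT, preleukemic, T-ALL#1 and T-ALL#2. In non-cycling cells it stood at 46.3, 42.2, 66.8 and 46.7 CPM. The groups lay far apart, with a log2 ratio of 4.16 ± 0.16 (SE, n = 4 libraries; edgeR adjusted p = 2.45e-05). Hist1h1e reached 472, 386, 439 and 266 CPM in cycling and 158, 183, 156 and 96.2 CPM in non-cycling cells, a log2 ratio of 1.59 ± 0.11 (adjusted p = 0.000107). Its 3′ end overlaps a Hist1h2be isoform on chromosome 13, so its reads may be shared with that gene. Hist1h1c, a linker histone known from resting cells too, was well detected in non-cycling (88.1, 89.0, 76.4 and 55.9 CPM) and in cycling cells (133, 97.9, 89.996 and 62.4 CPM). Its log2 ratio of 0.47 ± 0.10 still passed the test (adjusted p = 0.00766), although not without the library block (adjusted p = 0.115).

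Hist1h2ap had the highest mean level of all members. It stood at 7262, 3734, 304 and 129 CPM in cycling cells and 408, 392, 36.2 and 26.1 CPM in non-cycling cells of the 4 libraries in the same order. The states did not overlap within any library, but the leukemic cycling cells lay below the WT and preleukemic non-cycling cells. Its log2 ratio was 3.40 ± 0.33 (adjusted p = 0.000587), and without the block the adjusted p was 0.141. Hist1h2ae, the next H2A gene by level, had 1640, 1058, 350 and 485 CPM in cycling and 93.0, 115, 46.1 and 61.1 CPM in non-cycling cells (log2 ratio 3.50 ± 0.23, adjusted p = 0.000138). Hist1h2ab, next in level, had 155, 72.7, 127 and 130 CPM against 4.89, 5.94, 10.6 and 10.4 CPM, with the leukemias between WT and preleukemic in cycling cells and above both in non-cycling cells (log2 ratio 4.10 ± 0.26).

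No H2B gene came near the levels of Hist1h2ap and Hist1h2ae. Hist2h2bb led its class with 73.4, 41.6, 50.2 and 48.5 CPM in cycling and 8.96, 7.65, 7.67 and 12.0 CPM in non-cycling cells, a log2 ratio of 2.74 ± 0.18. Hist1h2be, whose annotated 3′ UTR is 1906 bases long, had 48.3, 39.8, 34.7 and 35.1 CPM against 34.7, 25.7, 15.4 and 13.5 CPM, and a ratio of 1.09 ± 0.14. Hist1h2bj, at 71.2, 44.2, 39.99 and 38.4 CPM against 4.06, 5.22, 5.42 and 6.15 CPM, had a ratio of 3.36 ± 0.25. The 3 leading H2B genes had cycling levels of the same order and non-cycling levels that differed from each other by several fold in WT.

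Of the H3 genes Hist1h3c was highest, at 315, 244, 173 and 195 CPM in cycling and 4.37, 9.76, 12.5 and 17.5 CPM in non-cycling cells (log2 ratio 4.63 ± 0.47, adjusted p = 0.000746). The gap was widest in WT and narrowest in T-ALL#2. Hist1h3e (ratio 2.30 ± 0.15) and Hist1h3f (2.65 ± 0.22) followed it. Hist1h4d led the H4 genes at 446, 324, 281 and 233 CPM against 57.1, 71.3, 62.6 and 49.2 CPM, a ratio of 2.57 ± 0.16. Hist1h4h (1.55 ± 0.15) and Hist1h4i (1.09 ± 0.16) stood well below it in level, and Hist1h4h lost its call without the block (adjusted p = 0.128).

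The largest ratio was that of Hist1h3b, with 78.7, 54.6, 16.9 and 9.14 CPM in cycling cells and 0.753, 1.48, 0.469 and 0.549 CPM in non-cycling cells. Those non-cycling levels rest on 10, 33, 9 and 5 UMIs. Its log2 ratio was 5.72 ± 0.30 (adjusted p = 7.91e-05), followed by Hist1h2af at 4.72 ± 0.28, Hist1h3c, Hist1h1b and Hist1h2ab. At the other end, Hist3h2a stood at 10.6, 11.0, 12.9 and 12.1 CPM in cycling cells and at 30.9, 27.7, 29.7 and 20.8 CPM in non-cycling cells. It is an H2A gene outside the large chromosome 13 cluster, and its non-cycling levels were higher in 4 of 4 libraries, by a log2 ratio of -1.02 ± 0.12 (adjusted p = 0.000534). The 11 alternative settings kept its direction and its call, with the ratio nearest to 0, -0.63, in cells thinned to 2000 UMIs.

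The other 4 members at the low end did not pass the test. Hist3h2ba, the H2B gene next to Hist3h2a, had a log2 ratio of -0.21 ± 0.19 (edgeR adjusted p = 0.400). Hist2h3c2 was at -0.19 ± 0.38 (adjusted p = 0.706) and Hist2h2be at 0.05 ± 0.22 (adjusted p = 0.859), and the sign of both depended on the setting. Hist4h4 had 8.65, 6.66, 8.40 and 9.99 CPM in cycling against 12.3, 7.20, 5.53 and 5.05 CPM in non-cycling cells (log2 ratio 0.42 ± 0.23, adjusted p = 0.159). Its WT level was the higher in non-cycling cells, and its leukemic levels were the higher in cycling cells. Hist2h3c1 and Hist2h4, named here after their values were seen, did not pass either, and 6 members (Hist1h1t, Hist1h2aa, Hist1h2ba, Hist1h2bq, Hist1h4m and Hist2h2aa2) with between 0 and 13 UMIs in all were left out by the expression filter. The members just counted as tested passed a filter that genes high in either state pass more easily.

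The remaining 45 members are given by counts and range, and values are not divided by length because each UMI stands for 1 captured molecule. The highest of them by mean CPM over the libraries were Hist1h1d (84.5), Hist1h2an (47.3), Hist1h3a (23.5), Hist1h2bc (23.1) and Hist1h4a (12.0), 1 for each class and named after their values were seen. Of the 45, 19 were above 10 CPM and 6 below 1 CPM.

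**Figure D2:**
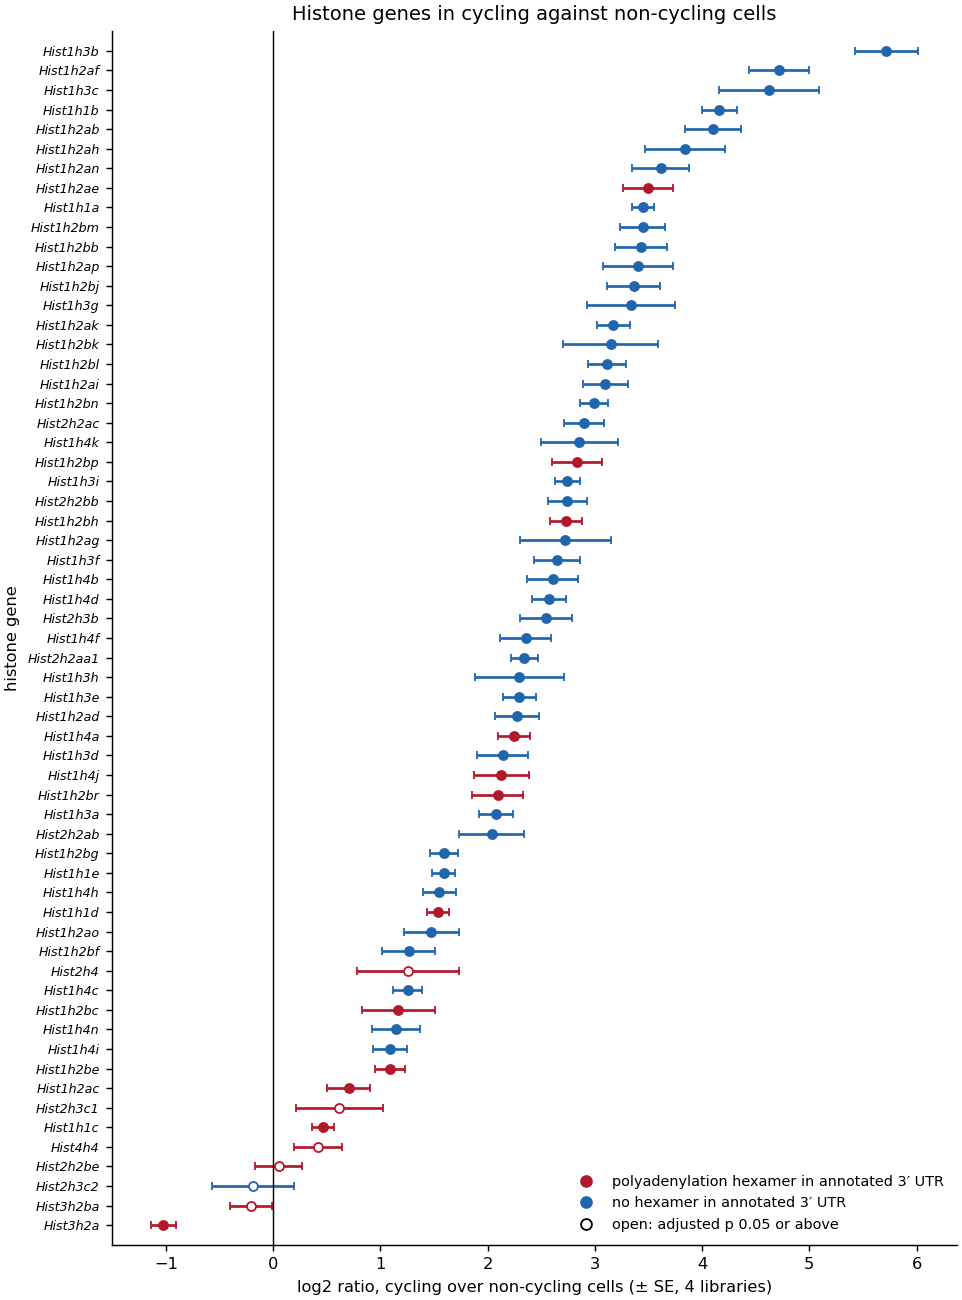
Log2 ratio of cycling to non-cycling cells for the 61 members tested, in order of the ratio, with the standard error over 4 libraries as bars, colours for AATAAA in the annotated 3′ UTR, and open symbols for members that did not pass. Of these, 54 rose and Hist3h2a alone fell, and red symbols (AATAAA) are frequent at the low end.

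Members with a long annotated 3′ end had the smaller ratios. Of the 17 tested members with AATAAA in the annotated 3′ UTR, 11 rose and 1 fell, with a median log2 ratio of 1.17. Of the 44 without it, 43 rose and none fell, with a median of 2.73. The same order appeared by length: the median was 2.99 for 11 members with no annotated 3′ UTR, 3.02 for 22 with up to 100 bases, and 1.56 for 28 with more. These medians were not tested against each other, and the annotation of each end is itself built from cloned transcripts. Whether the non-cycling UMIs come from polyadenylated mRNA of these genes could not be read from gene totals.

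Promoters are printed for the members at both ends of this range and for the most abundant one, since the classes differ in their promoter motifs. The motifs searched on both strands were the octamer ATTTGCAT, the CCAAT box and the TATAAA box, in 250 bases before to 50 after each start (RefSeq, GRCm38.p6). Capitals mark every match, and 62 of 67 members had an entry. Each line is 5′ to 3′ on the gene's strand.
Hist1h3b, chr13:23752095-23752394, plus strand: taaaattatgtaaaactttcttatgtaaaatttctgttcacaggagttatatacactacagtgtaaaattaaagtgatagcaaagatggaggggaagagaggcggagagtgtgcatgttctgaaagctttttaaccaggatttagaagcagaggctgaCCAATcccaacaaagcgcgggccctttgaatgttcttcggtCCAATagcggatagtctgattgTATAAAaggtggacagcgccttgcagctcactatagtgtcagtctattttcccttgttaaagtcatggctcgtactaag
Hist3h2a, chr11:58954435-58954734, plus strand: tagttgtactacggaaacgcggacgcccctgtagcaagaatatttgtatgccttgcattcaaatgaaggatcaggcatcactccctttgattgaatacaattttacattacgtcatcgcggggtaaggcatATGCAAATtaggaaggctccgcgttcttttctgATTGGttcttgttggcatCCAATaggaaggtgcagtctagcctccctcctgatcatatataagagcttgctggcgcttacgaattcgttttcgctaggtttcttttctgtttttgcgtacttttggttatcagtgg
Hist1h2ap, chr13:21833426-21833725, minus strand: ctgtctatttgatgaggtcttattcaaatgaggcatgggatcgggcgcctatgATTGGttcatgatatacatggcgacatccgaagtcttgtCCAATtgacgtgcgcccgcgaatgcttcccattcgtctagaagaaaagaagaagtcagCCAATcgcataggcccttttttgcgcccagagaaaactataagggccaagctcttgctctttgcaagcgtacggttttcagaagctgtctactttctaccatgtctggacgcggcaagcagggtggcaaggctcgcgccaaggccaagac
The octamer was in 7 of 18 H2A and 6 of 16 H2B promoters and in no H1, H3 or H4 promoter, against 1.74% of 32851 promoters in the same table. The CCAAT letters were in every H1, H2A, H2B and H3 promoter (6, 18, 16 and 10) but in 3 of 12 H4 promoters, against 37.4% of all. TATAAA was in 4 H1, 11 H2A, 8 H2B, 4 H3 and 8 H4 promoters, against 13.6% of all. The Hist3h2a window held the octamer and CCAAT and no TATAAA, and the Hist1h3b window held CCAAT and TATAAA and no octamer. A match is a run of letters and not a measured binding site.

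Droplets hold free RNA whether or not a cell is in them, and its level was measured in T-ALL#2 alone, whose table kept them. There, 65822 barcodes with 100 to 499 UMIs held histone UMIs at 3798 CPM, above the 2546 CPM of the kept cells. At 1.09 member UMIs per such droplet, this equals 13.8% of the member UMIs of non-cycling cells and 1.55% of those of cycling cells. The order of genes also differed, since Hist1h1b was at 670 CPM in these droplets and at 46.7 CPM in non-cycling cells. Hist3h2a was at 13.2 CPM in the droplets and at 20.8 CPM in non-cycling cells. At least 1 member UMI was found in 92.7%, 95.5%, 96.0% and 98.5% of non-cycling cells of the 4 libraries, so detection alone separates no state. A share of at least 0.5% of a cell's UMIs from members was far rarer there: 12.9% of non-cycling WT cells, 2.99% of preleukemic, 0.1996% of T-ALL#1 and 0 of 753 T-ALL#2 cells, which allows up to 0.489% (exact binomial). Among cycling cells this share was reached by 43.1%, 27.5%, 27.0% and 22.2%. Those cells held 95.8%, 87.9%, 70.8% and 65.6% of the member UMIs of cycling cells.

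To look within the cycle, cells were also split by Rrm2, a subunit of the enzyme that makes deoxynucleotides, and Hells, a chromatin remodeller, both high in S phase. Cells with a marker of each kind (Rrm2 or Hells, and Mki67 or Top2a) held the members at 15311, 9217, 3916 and 3487 CPM. Cells with Mki67 or Top2a alone held them at 2493, 1994, 832 and 737 CPM. Within the cycling cells of each library the level thus differed by over 4 times with the S-phase genes, and no test was run on this split.

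The same split held for single genes. Hist1h1b stood at 1131, 830, 904 and 731 CPM in cells with both kinds of marker and at 89.7, 71.6, 78.9 and 52.9 CPM in cells with Mki67 or Top2a alone. Hist1h2ae stood at 1890, 1235, 377 and 537 CPM against 261, 215, 51.9 and 70.1 CPM. In cells with neither kind of marker Hist1h1b stood at 50.3, 39.999, 72.4 and 47.4 CPM, nearer to the level with Mki67 or Top2a alone than to that with both.

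Cells with Rrm2 or Hells but neither Mki67 nor Top2a were compared with cells that had none of the 4 genes. All members together stood at 798 CPM against 1368 in WT, at 1406 against 1285 in preleukemic, at 666 against 794 in T-ALL#1 and at 610 against 694 in T-ALL#2. The direction was not the same in every library. Of 49 members tested by edgeR, 5 rose and 6 fell, against 15.8% and 12% of the 11297 genes tested (27.8% in either direction). Those that rose were Hist1h2ag (log2 ratio 2.15), Hist1h2bk (1.85), Hist1h2bj (0.86), Hist1h3a (0.73) and Hist1h3c (0.72). The 6 that fell were Hist1h2be (-0.54), Hist1h1e (-0.47), Hist1h1c (-0.46), Hist1h2ac (-0.43), Hist3h2a (-0.41) and Hist1h1d (-0.28). Hist1h2ag, Hist1h2bk, Hist1h3a, Hist1h2ac and Hist1h1d are named here after their values were seen. Without the library block no member was called in either direction, as for all genes (0%). Without T-ALL#1 2 rose and 3 fell, against 9.68% and 5.29% of all genes, and without WT 3 fell, against 14.2%. With AATAAA in the 3′ UTR, 0 of 15 members rose and 5 fell, and without it 5 of 34 rose and 1 fell.

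The result turned when all cells were set to 1 depth. With every cell thinned to 2000 UMIs and the states read again from the thinned counts, all members stood at 1978, 2316, 1133 and 2155 CPM in the cells with Rrm2 or Hells alone, against 1267, 1357, 873 and 806 CPM in cells with none of the genes. The S-phase gene then went with the higher level in 4 of 4 libraries. In the thinned test 20 of 37 members rose and 1 fell, with a median log2 ratio of 0.85 in place of -0.12, and of all 9711 genes in that fit 13.7% rose and 9.56% fell. Thinning left out 991 WT, 350 preleukemic, 94 T-ALL#1 and no T-ALL#2 cells, and it moves cycling cells that lose their Mki67 and Top2a UMIs into the group called non-cycling.

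**Figure D3:**
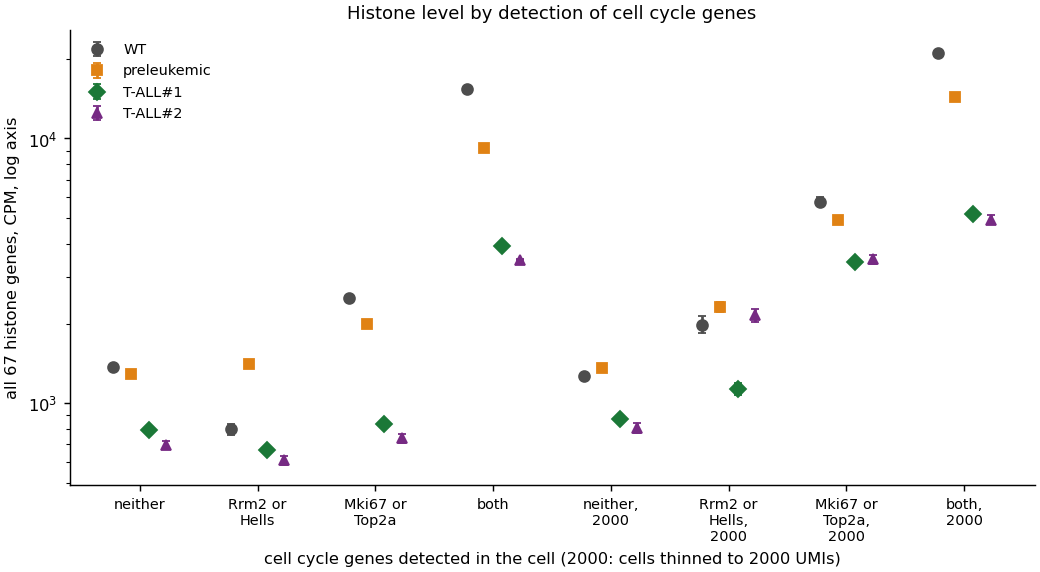
Summed CPM of all members (log axis) in cells with neither kind of marker, with Rrm2 or Hells alone, with Mki67 or Top2a alone, and with both, at full depth and after thinning to 2000 UMIs. Cells with both stood highest in every library, and the order of the first 2 states changed with thinning in 3 libraries.

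The leukemic libraries differed from WT and preleukemic in a few members far more than in the rest. Within cycling cells, 45 members reached 10 CPM in at least 1 library. Both leukemic libraries were at least 2-fold below both other libraries in 9 of these 45 members, against 3.79% of the 8316 genes at that level, and at least 2-fold above in none, against 1.53%. With TMM scaling over the libraries it was 7 members lower and none higher, against 2.67% and 2.19% of all genes. This is a rule of size with no test, since 2 leukemic animals are set against single animals of other ages. Hist1h2br, Hist1h2ai, Hist1h2ad and Hist2h3b reached 10 CPM in WT and preleukemic alone, so they passed the filter only through the side where they are high. The count of lower members thus depends in part on that filter.

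Hist1h2ap stood furthest apart. Its mean over WT and preleukemic was 25.4 times its mean over the leukemias, and it made up 52.0% and 44.1% of all member UMIs in WT and preleukemic but 8.07% and 4.04% in the leukemias. Without it, the members summed to 6084, 4232, 3350 and 3052 CPM in cycling cells and to 3205, 2428, 2637 and 2443 CPM over all cells. The order WT, preleukemic, T-ALL#1, T-ALL#2 thus stayed in cycling cells with smaller gaps, but over all cells both leukemias stood at or above preleukemic. The other 8 were Hist1h2br (8.54 times), Hist1h2ai (8.45), Hist2h2aa1 (5.22), Hist1h3b (5.11), Hist1h2ad (3.88), Hist1h4h (3.65), Hist1h2ae (3.23) and Hist2h3b (3.23). These 9 were 5 of 13 H2A, 1 of 14 H2B, 2 of 9 H3, 1 of 4 H4 and 0 of 5 H1 genes.

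**Figure D4:**
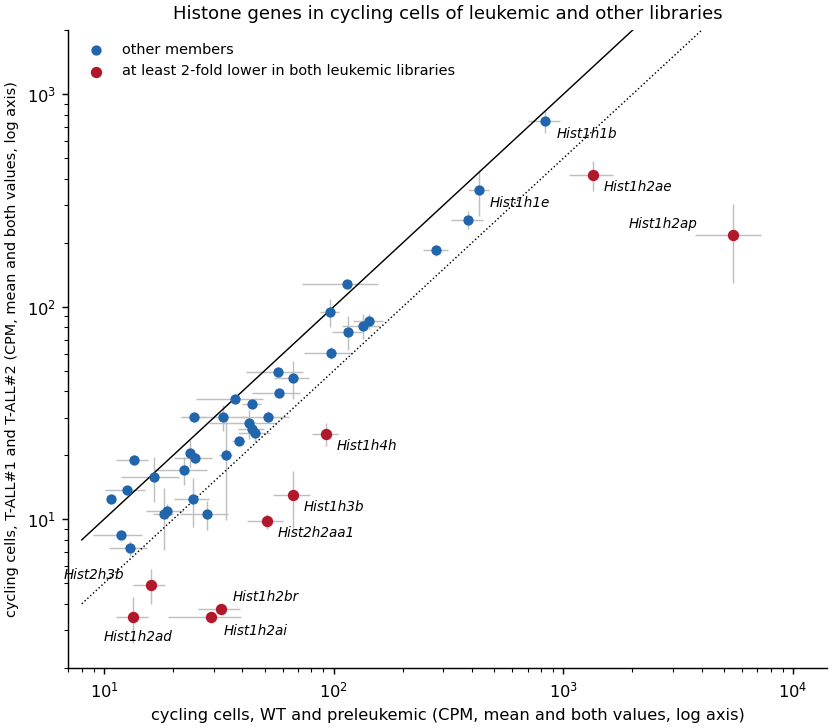
Mean CPM of each member in cycling cells of the leukemic libraries (vertical axis) against WT and preleukemic (horizontal axis), both on log axes, with bars to both values, a solid line at equal levels and a dotted line at a 2-fold lower level. The 9 members at least 2-fold lower in both leukemias are marked and named, with Hist1h2ap furthest from the diagonal.

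Shared sequence was counted for these members too. All 9 lower members shared 90-base windows of their 3′ end with another member, with a median of 72.3% of windows (35.7% to 100%). All 9 also shared 150-base windows, from 20.3% (Hist1h2br) to 100% (Hist1h2ap and Hist2h2aa1). Of the other 36, 23 shared any, with a median of 35.5%, and Hist1h2an (83.9%) and Hist1h2ag (75.9%), named after their values were seen, were among those not lower by the rule. Hist1h2ap shared all of its windows with Hist1h2ao, which stood at 3.72, 1.24, 1.84 and 1.77 CPM in cycling cells. The chemistry is given as a mixture of 2 kit versions without a statement for each library, and the count software was version 3.0.2 for WT, preleukemic and T-ALL#1 and version 4 for T-ALL#2. The part of shared sequence and of the software version in the lower levels was not tested. Leukemia, age and animal cannot be told apart here, and the part of the kit cannot be read because the kit of each library is not stated. The study's methods name no read length that differs between libraries. For T-ALL#2 the sex-linked genes given above are a further difference.

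Hist1h2ap was lower in both leukemias at matched surface markers as well. In cycling cells with Cd4 and Cd8a it stood at 9229, 5972, 315 and 105 CPM in the 4 libraries. In cycling cells with Il2ra and neither coreceptor it stood at 2760, 2435, 267 and 147 CPM. The WT value rests on 20 cells. Of these, 11 had fewer genes than the mean plus 3 SD, the kind of upper limit the study set against doublets. The leukemic levels lay below the others in both kinds of cells by more than 9-fold, a gap wider than that between the 2 kinds of cells within any library.

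Thymocytes pass from a double-negative (DN) stage, in which Il2ra (CD25) marks the stages around beta-selection, through a burst of division to the double-positive (DP) stage with Cd4 and Cd8a. DP cycling cells held the members at 17065 CPM against 5472 CPM in DN cycling cells in WT, 13106 against 6325 in preleukemic and 4064 against 2905 in T-ALL#1. In T-ALL#2 the order turned, with 2865 against 3220 CPM. The log2 ratios were 1.64, 1.05, 0.48 and -0.17. In edgeR no member rose and none fell among the 61 tested, against 0.556% and 0.443% of 11501 genes (1% in either direction). At an unadjusted p below 0.05 there were 18, all at a higher level in DP cells, against 7.5% of all genes higher and 10.4% lower. With 1 library left out these 18 became 12 (WT), 7 (preleukemic), 9 (T-ALL#1) or 44 (T-ALL#2). Of all genes, 6.48%, 6.58%, 5.33% and 7.25% were higher at that p in the same fits. The fitted ratio was above 0 for 60 of 61 members (median 0.66), against 5428 of all 11501 genes (median -0.02). DESeq2 called 2 higher, Hist1h2br and Hist1h1d, against 1.6% of all genes. Hist1h2ae, set against DN cells with Il2ra, was higher in DP cells of WT, preleukemic and T-ALL#1 and lower in those of T-ALL#2. It stood at 2155, 1966, 374 and 441 CPM in DP cycling cells, and at 507, 654, 294 and 529 CPM in DN cycling cells with Il2ra. After thinning to 2000 UMIs, which left WT and T-ALL#1 with enough cells, 29 members had a median log2 ratio of -0.07 with none called. Without T-ALL#2, 5 rose in DP cells, against 0.594% of all genes, and the difference between T-ALL#2 and the other libraries was not tested.

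Within DN cycling cells, those with Il2ra held the members at 4891 CPM against 6031 without it in WT and at 5106 against 6953 in preleukemic. In the leukemias the order was the opposite, 3060 against 2768 in T-ALL#1 and 3417 against 2263 in T-ALL#2. The log2 ratios were -0.30, -0.45, 0.14 and 0.59. No member was called in either direction among the 56 tested by edgeR, against 0.186% higher and 0.597% lower of 10729 genes (0.783% in all). At an unadjusted p below 0.05, 1 was higher and 2 were lower, against 6.97% and 7.61% of all genes. DESeq2 called none after adjustment, against 0.429% higher and 0.177% lower of all genes. The WT values rest on 20 cells with Il2ra and 45 without, and those of the other libraries on 102 to 616 cells in each state. Under the upper limit on genes, 11 of the WT cells with Il2ra were left, with 130635 of their 453265 UMIs. WT then had too few cells to enter that fit. A missing UMI does not show that a cell lacks Cd4, Cd8a or Il2ra.

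**Figure D5:**
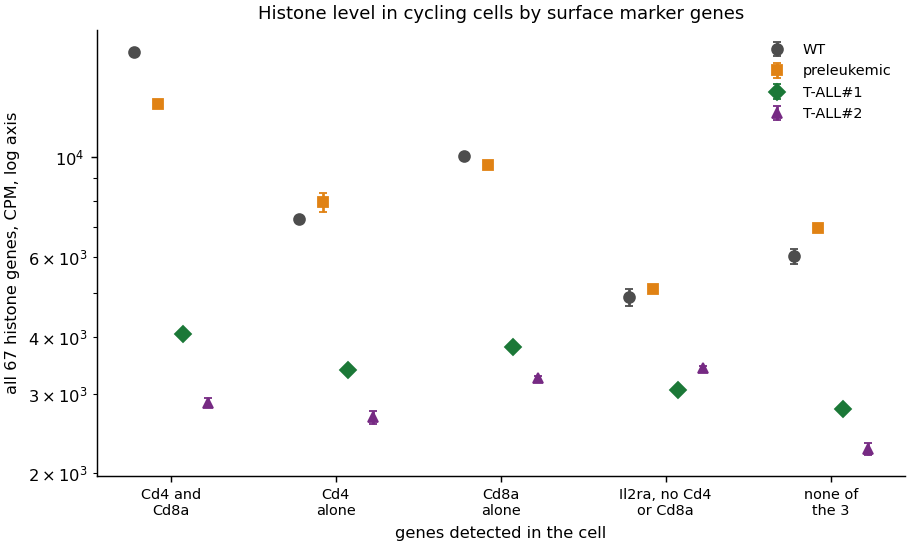
Summed CPM of all members (log axis) in cycling cells of each library, by detection of Cd4, Cd8a and Il2ra, with exact Poisson 95% intervals. Cells with Cd4 and Cd8a stood highest in WT, preleukemic and T-ALL#1, at 17065, 13106 and 4064 CPM.

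Genes that make or handle histones were read against the same shares of all genes, 24.8% higher and 24.3% lower in cycling cells. Of 11 genes for histone mRNA 3′ end processing and transcription, 9 rose in cycling cells and none fell, with a median log2 ratio of 0.76. Slbp, which binds the stem-loop, rose by 2.23 on the log2 scale, Casp8ap2 (FLASH) by 0.97, and Npat, the coactivator of histone transcription, by 0.52. Lsm10, a subunit of the U7 particle, and the scaffold Sympk did not pass. Of 15 chaperones and acetylase subunits for new histones, 11 rose and 1, Cabin1 of the HIRA complex (-0.37), fell, with a median of 0.95. Asf1b, which hands H3 and H4 to the assembly factors, had a log2 ratio of 3.43, and Nasp, a chaperone of H3 and H1, one of 1.95. Atrx, which places H3.3 with Daxx, was at -0.07 and did not pass. In the list taken as replication-independent histone genes, 6 of 10 tested rose with a median of 0.79. H2afz rose by 2.15 on the log2 scale and H2afx by 2.25, whereas the H3.3 genes H3f3a (0.33, adjusted p = 0.0573) and H3f3b (0.20, adjusted p = 0.232) did not pass. The median of the members, 2.35, stood above that of each of these 3 lists. B cell markers fell in cycling cells (5 of 5), with their summed level at most 18.7 CPM, and their part in these ratios was not tested.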

How the data were processed

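The authors deposited unique molecular identifier (UMI) counts per gene and barcode, made with Cell Ranger (version 3.0.2 for WT, preleukemic and T-ALL#1, version 4 for T-ALL#2, per the file headers) against mm10. The labels name 10x 3′ chemistries v1 and v3.1, the study's methods v3 and v3.1, and neither says which library had which. Cells were kept with over 500 genes and under 10% mitochondrial UMIs, and in T-ALL#2 with at least 3416 UMIs. No doublet caller was run. Levels are UMIs of a gene per 1000000 UMIs of the cells in a state (CPM), with exact Poisson 95% intervals, which cover counting error only.

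Counts were summed per library and state and tested with edgeR 4.0.16 (R 4.3.3; TMM factors, filterByExpr, robust quasi-likelihood test, library as a block, Benjamini-Hochberg over all genes, threshold 0.05). States needed at least 20 cells. The 2 sums of a library come from the same animal, which is where the pairing comes from. On simulated counts over 12583 genes for the cycling comparison, 87% of genes with a log2 change of 1 and 100% of those with 2 were recovered. The simulation gave every library the same mean levels and the same change per gene, with a fixed dispersion. It therefore does not give the power in these data, whose libraries differ. DESeq2 1.42.0, no block, no filter, totals only, other marker rules, an upper gene limit, thinning to 2000 UMIs and leaving out each library were the alternatives.

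Promoters came from RefSeq (GRCm38.p6) and gene ends from GENCODE M21. Windows shared with another member were counted by exact match of 90 bases, and again of 150 bases, within the last 400 bases of the transcripts. Members given with values were the 3 highest by mean CPM of each class, the 5 highest and 5 lowest cycling ratios among those with at least 100 UMIs, and 2 to 4 genes of each list. The members and lists were chosen with earlier results of these data known.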

Additional observations from a re-analysis of the deposited data

Results flagged for a closer look

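Hist4h4 moved in different directions with cycling. Its log2 ratio of cycling to non-cycling cells was -0.50 in WT, 0.60 (T-ALL#1) and 0.98 (T-ALL#2), and the difference between the libraries was not tested.

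All members together differed in direction between libraries in the cells with Rrm2 or Hells alone against cells with no cycle gene. The log2 ratios were -0.78 in WT, 0.13 in preleukemic, -0.25 (T-ALL#1) and -0.19 (T-ALL#2). The difference was not tested.

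In cycling DN cells the log2 ratio of cells with Il2ra to cells without it, over all members, was -0.30 in WT and -0.45 in preleukemic. The leukemias had 0.14 (T-ALL#1) and 0.59 (T-ALL#2). This difference was not tested either.

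Droplets of T-ALL#2 with 100 to 499 UMIs, which enter no comparison, held the members at 3798 CPM, more than the 2546 CPM of its kept cells.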

How the results depend on the processing

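The cycling comparison kept its direction throughout: 38 (no replicate block) to 56 members (without WT) rose and 1 fell in each of 11 alternatives. Of all genes, 6.22% rose and 1.56% fell without the block, and 21.6% rose and 20.1% fell without WT. The replicate block joins the 2 sums of each animal. Without it the comparison of cells with Rrm2 or Hells alone had 0 members higher and 0 lower, and those by Cd4 and Cd8a or by Il2ra had 0 in both fits. The share of all genes called was 0% in each of these comparisons too. In the first of these comparisons 5 rose and 6 fell, against 20 and 1 after thinning and 3 higher with Mcm5 or Tyms as markers. Of all genes, 15.8% rose and 12% fell in the main fit, and 13.7% and 9.56% after thinning. With Mcm5 or Tyms 15.5% rose. Leaving out 1 library gave 2 to 6 higher (2 without T-ALL#1) and 3 to 7 lower (3 without WT or without T-ALL#1). Over all genes these fits called 9.68% (without T-ALL#1) to 16.2% (without WT) higher. They called 5.29% (without T-ALL#1) to 14.2% (without WT) lower. For DP against DN cells, 0 became 4 without the filter, 2 with DESeq2 and 0 to 5 with 1 library left out (5 without T-ALL#2). The shares of all genes called higher were 1.23% without the filter, 1.6% with DESeq2 and 0.594% without T-ALL#2. The Il2ra comparison stayed at 0. After thinning, too few cells were left in some libraries, so DP against DN used WT and T-ALL#1 only and Il2ra left out WT. The Il2ra comparison left out WT under the upper limit on genes too.

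The summed level in WT, preleukemic, T-ALL#1 and T-ALL#2 was 4093, 2614, 2045 and 1974 CPM as a mean over cells, 3829, 2595, 2029 and 1974 after thinning, 7730, 4883, 3085 and 2674 with under 5% mitochondrial UMIs, and 5888, 3924, 2902 and 3160 with TMM factors. An upper limit on genes gave 6211 in WT and 4143 in preleukemic.

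Of 241 values of the 22 named members under alternatives, 232 kept direction and call. Hist2h2be turned to -0.0056 with DESeq2 and -0.15 with totals, and ranged from -0.16 (without T-ALL#1) to 0.13 with 1 library left out. Hist2h3c2 ranged from -0.57 to 0.0077 (without WT). Hist4h4 passed without WT (0.65) and after thinning (0.71). Over all genes, alternatives called 737 to 3048 higher and 185 to 4486 lower by cycling, 0 to 1789 and 0 to 2458 by Rrm2 or Hells, 0 to 315 and 0 to 377 by Cd4 and Cd8a, and 0 to 218 and 0 to 336 by Il2ra. The cause was not tested. Without the expression filter 66 of the 67 members were tested for cycling, and 52 rose, against 15.2% of all genes.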
